A study of Mus musculus with 13 samples.

Results

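The AP-1 and immediate early genes examined here are 10 genes chosen by symbol: Fos, Fosb, Fosl1, Fosl2, Jun, Junb, Jund, Atf3, Egr1 and Egr2. All 10 had an H3K4me3 peak at the transcription start site (TSS) in both H3K4me3 lists, out of 12197 genes with such a peak in both lists and 12693 with a peak in either. They lie on 9 chromosomes, and each had 1 listed transcript. Gene-body peaks of H3K27me3, NUP210 or nuclear pore proteins (NPC) were listed for 0 of the 10, beside 3.19% (H3K27me3, sg-Ctrl), 2.68% (H3K27me3, KO), 11.4% (NUP210) and 10.6% (NPC) of genes of similar length, so that 0 of 10 is near these shares.

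The chromatin immunoprecipitation sequencing (ChIP-seq) was done in 4T1, a cell line from a spontaneous mammary tumor of a BALB/cJ mouse, to ask how loss of NUP210, a nuclear pore protein, alters active and repressive histone marks. H3K4me3 (promoters in use) and H3K27me3 (Polycomb repression) were profiled in sg-Ctrl cells, which carry a nontargeting guide RNA, and in the Nup210 knockout clone KO-N13, made with CRISPR/Cas9. NUP210 and NPC (antibody MAb414) were profiled in sg-Ctrl cells only, and IgG served as background. There was 1 library per mark and condition, and the KO arm is 1 single-cell clone, so clone and knockout cannot be told apart, no test over samples is possible, and intervals given here are exact 95% intervals that cover counting error only.

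AP-1 is a dimeric transcription factor assembled from Fos-family and Jun-family proteins, which pair through leucine zippers and bind DNA together. Many of its genes are immediate early genes: their promoters are kept accessible in resting cells and are transcribed within minutes of a growth factor or stress signal, through MAP kinases, serum response factor and CREB-type factors, with no need for new protein. In mammary tumor cells AP-1 is known for its part in proliferation, migration and the response to mechanical and inflammatory signals.

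TSS H3K4me3 was listed at 6 of 7 mammary epithelium markers, all but Krt5, and at 2 of 10 markers of other cell types, Cd68 (macrophages) and Pdgfra (fibroblasts). Reads in peaks came to 26236314 for H3K4me3 in sg-Ctrl and 24873356 in KO, and the KO library was 1.27 times as deep by the ratio recovered from the deposited folds. Nup210 itself had 885 TSS reads in sg-Ctrl against 913 in KO, with -0.41 as the log2 ratio of reads per kb. That value does not check the knockout, since the promoter lies outside the targeted exon.

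The promoters show what the peaks sit on. RefSeq windows on GRCm38.p6, running from 250 bases before to 50 after the start, were matched for 8 of the 10 genes, all but Fosl1 and Egr1. The last 150 bases before the start are printed for the 6 in which TGACG or the EGR site was found, 5′ to 3′ on the strand of the gene. Capitals mark TGACG (the core of the cAMP response element, CGTCA on the other strand), TATAAA, the EGR site GCGNGGGCG and the CArG box, the site of serum response factor. Each printed stretch lies inside the H3K4me3 peak of its gene in both lists.
Fos promoter, chr12:85473740-85473889, plus strand: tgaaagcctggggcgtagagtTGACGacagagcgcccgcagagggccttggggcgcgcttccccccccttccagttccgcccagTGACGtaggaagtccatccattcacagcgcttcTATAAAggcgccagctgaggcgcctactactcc
Fosb promoter, chr7:19310046-19310195, minus strand: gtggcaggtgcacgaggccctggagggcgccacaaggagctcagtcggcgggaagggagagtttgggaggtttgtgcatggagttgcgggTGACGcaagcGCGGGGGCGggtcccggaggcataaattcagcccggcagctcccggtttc
Fosl2 promoter, chr5:32136322-32136471, plus strand: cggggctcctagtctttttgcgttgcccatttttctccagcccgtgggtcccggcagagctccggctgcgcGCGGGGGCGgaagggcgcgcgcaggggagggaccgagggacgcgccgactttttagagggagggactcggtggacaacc
Junb promoter, chr8:84978749-84978898, minus strand: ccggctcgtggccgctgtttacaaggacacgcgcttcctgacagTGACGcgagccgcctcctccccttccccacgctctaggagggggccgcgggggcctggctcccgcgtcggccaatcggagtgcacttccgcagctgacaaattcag
Atf3 promoter, chr1:191183334-191183483, minus strand: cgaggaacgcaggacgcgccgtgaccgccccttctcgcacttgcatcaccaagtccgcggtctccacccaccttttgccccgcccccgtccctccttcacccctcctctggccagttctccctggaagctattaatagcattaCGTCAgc
Egr2 promoter, chr10:67537719-67537868, plus strand: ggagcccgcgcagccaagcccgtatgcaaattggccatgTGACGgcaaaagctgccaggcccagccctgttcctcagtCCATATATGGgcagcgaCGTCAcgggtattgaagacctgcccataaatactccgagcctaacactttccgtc
The motif counts were read on both strands against 32851 windows of the same length. These windows were taken whatever their H3K4me3 state, while all 8 genes had a TSS peak in both lists. The 8 were not compared with windows of other H3K4me3 genes alone. TGACG was present in 5 of the 8 windows (Fos, Fosb, Junb, Atf3 and Egr2) and in 20.8% of all windows. The EGR site stood in Fosb, 50 bases before the start, and in Fosl2, 79 bases before it, and was present in 5.55% of all windows. The CArG box was found in Egr2, 72 bases before the start, against 1.63% of all windows. TATAAA was found in Fos, 33 bases before the start, and in Junb, at the start itself and so outside the printed stretch, against 13.6% of all windows. The GC box GGGCGG, which can overlap the EGR site and is not in capitals, was present in 5 of 8 windows and in 35.7% of all. The full cAMP response element TGACGTCA and the AP-1 site TGANTCA matched none of the 8, against 1.79% and 7.81% of all windows. Only these exact strings were counted, so a variant such as TGACATCA, which the Jun window holds, was not. CpG dinucleotides numbered 20.5 at the median of the 8 windows and 7 at the median of all windows, and the lowest count was 3, in Jund. A match is a run of letters, not evidence of binding.

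With libraries scaled to the shared IgG library, H3K4me3 was lower in KO at 7 of the 10 genes, whereas with libraries scaled by the reads of the 575 peaks of identical extent in both lists, a small subset of the 11018 and 10854 listed peaks, it was higher at 6 of them. In reads per kb, the log2 ratio had a median of -0.26 over the 10 members and -0.50 over all 12197 genes, of which 88.7% lay below 0 and the 5th to 95th percentile spanned -1.15 to 0.24. Here the level is the reads of the TSS peak divided by the depth of its library relative to the shared IgG library and by the peak width in kb. Only Fosl2 had a ratio of at most 0.5, 1 of 10 members beside 9.66% of all genes. A ratio of at least 2 was reached by 0 of 10 members and 0.525% of all genes. In 7 members the interval lay below 0, in Fosb it lay above 0, and in Junb and Jund it held 0. Over all genes 11.3% were above 0 at any size, beside 3 of the 10 members. Against the median gene 6 of 10 members were higher and 4 lower, and 0 of 10 were at most 0.5 of it, beside 0.926% of all genes. Scaling by these 575 peaks moved the median of all genes to -0.03 and that of the members to 0.21, so the position of each gene relative to the median gene is given beside its own ratio where the 2 differ in direction.

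**Figure D1:**
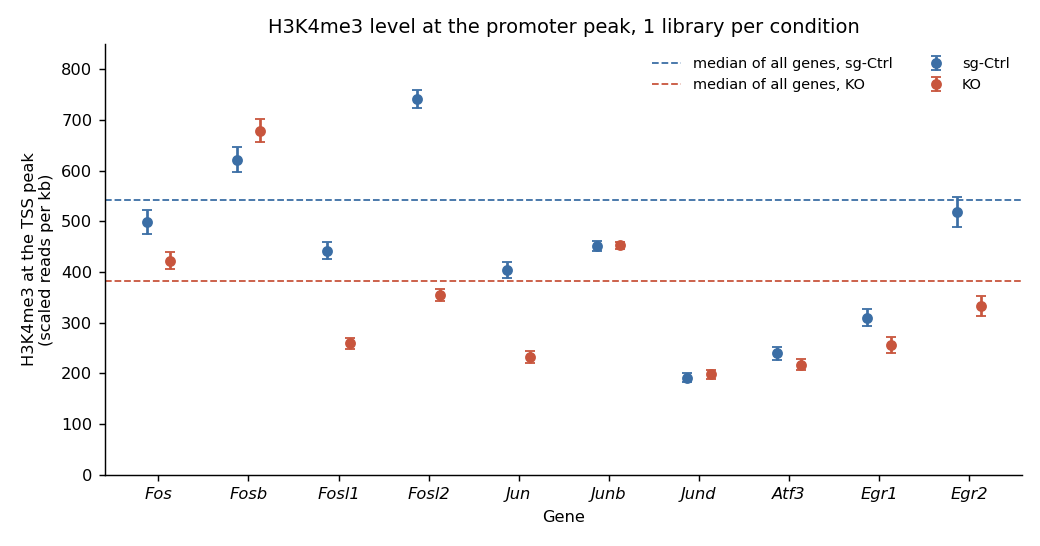
H3K4me3 level at the TSS peak of each gene in scaled reads per kb, with sg-Ctrl in blue and KO in red, 1 library each; bars are exact 95% Poisson intervals and dashed lines the medians of all genes (543 in sg-Ctrl, 382 in KO). Fosl2 has the largest distance between conditions, from 742 to 355, while the points of Junb and Jund overlap.

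The Fos family gives AP-1 its regulated partner, and its 4 genes held both the highest and the lowest ratio among the members. Fos, the founding immediate early gene of the family, had 1694 reads in a peak of 3.2 kb in sg-Ctrl (chr12:85471601-85474800) and 2507 reads in a peak of 4.4 kb in KO (chr12:85471201-85475600). Its level, in scaled reads per kb, was 499 in sg-Ctrl against 423 in KO, for a log2 ratio of -0.24 (interval -0.33 to -0.15), which is 0.26 above the median gene. The direction depended on whether width was taken into account, since total scaled reads were higher in KO by a log2 ratio of 0.22 (0.13 to 0.31). The peak covered 26.7% of the gene in sg-Ctrl and 50.4% in KO, reaching 0.9 and 1.7 kb past the start.

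Fosb, whose truncated splice form accumulates under repeated stimulation, was the member with the highest ratio. It had 2505 reads over 3.8 kb in sg-Ctrl (chr7:19307201-19311000) and 3660 over 4 kb in KO (chr7:19307201-19311200). The level was 621 in sg-Ctrl against 679 in KO, for a log2 ratio of 0.13 (0.05 to 0.20). Its place among all genes by level was percentile 60.3 in sg-Ctrl and 93.9 in KO, and its ratio lay at percentile 92.7 of all ratios.

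Fosl1 encodes FRA-1, the Fos-family protein tied to invasion in mammary tumor cells. In sg-Ctrl it had 2 peaks, of 1 kb with 74 reads (chr19:5444401-5445400) and of 5.8 kb with 2717 reads (chr19:5446601-5452400), 1200 bp apart. In KO a single peak of 6.4 kb with 2236 reads (chr19:5444401-5450800) spanned that gap and ended 1600 bp nearer to the start on the gene side. The level of the higher peak was 442 in sg-Ctrl against 259 in KO, for a log2 ratio of -0.77 (-0.85 to -0.69). Total scaled reads of its peaks gave -0.67 (-0.75 to -0.58), and summed reads over summed width gave -0.58. On the deposited fold over IgG the log2 ratio was -1.70, where the IgG reads were 18 in the sg-Ctrl peak and 38 in the KO peak.

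Fosl2 encodes FRA-2, a Fos-family protein with no transactivation domain of the FOS type, and is the longest gene of the group at 21.4 kb. It had 7238 reads over 9.2 kb in sg-Ctrl (chr5:32132001-32141200) and 4110 over 8.6 kb in KO (chr5:32132201-32140800). Its level was 742 in sg-Ctrl, the highest of the 10, and 355 in KO, a log2 ratio of -1.06 (-1.12 to -1.01), or 0.478 of the sg-Ctrl level. In KO the peak ended 200 bp nearer to the start on the upstream side and 400 bp nearer on the downstream side, so the reads were fewer over nearly the same span. Chromosome 5, where Fosl2 lies, had a median log2 ratio of -0.72 over 760 genes, 20.0% of which were at most 0.5, and Fosl2 was 0.34 below that median. The part of the chromosome in the Fosl2 value was not tested.

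The Jun family supplies the partner that AP-1 needs, and its 3 genes are short and have no introns, so that a promoter peak can span the whole gene. Jun, the main transactivating partner of Fos and a target of the JNK kinases, had 2828 reads over 6.6 kb in sg-Ctrl (chr4:95048601-95055200) and 1628 over 5.2 kb in KO (chr4:95049401-95054600). Its level was 404 in sg-Ctrl against 232 in KO, for a log2 ratio of -0.80 (-0.89 to -0.71). Because the KO peak was also narrower, by 600 bp upstream and 800 bp downstream, total scaled reads differed more, by a log2 ratio of -1.14 (-1.23 to -1.05). The sg-Ctrl peak covered 100% of the gene and ran past its end, and the KO peak covered 88.5%. The deposited fold over IgG gave the other direction, 70.2 in sg-Ctrl and 75.5 in KO, with 38 IgG reads in the sg-Ctrl peak and 16 in the narrower KO peak. Chromosome 4 had a median of -0.72 over 774 genes, and relative to it Jun was at -0.08.

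Junb, a weaker activator that can hold Jun in check, lay in the broadest domain of the group. Its sg-Ctrl peak had 8624 reads over 18 kb (chr8:84973801-84991800), shared with Hook2, and its KO peak had 17212 reads over 28.2 kb (chr8:84964001-84992200), shared with Hook2, Prdx2 and Rnaseh2a. These widths were at percentiles 99.8 and 99.97 of all genes. The difference in span was the joining of a neighbour, since sg-Ctrl had a separate peak of 7.6 kb with 5648 reads at Prdx2 and Rnaseh2a (chr8:84965001-84972600). The level was 452 in sg-Ctrl against 453 in KO, for a log2 ratio of 0.00 (-0.03 to 0.04). Total reads of the Junb peak alone gave 0.65, and reads summed over the joined region of both conditions gave -0.07 (-0.11 to -0.04). A KO peak that joined at least 2 sg-Ctrl peaks was found at 1.97% of all genes and at 2 members, Fosl1 and Junb.

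Jund, the Jun gene that most cells express without stimulation, had the lowest level of the 10 in both conditions. It had 1627 reads over 8 kb in sg-Ctrl (chr8:70695001-70703000) and 2187 over 8.2 kb in KO (chr8:70695001-70703200). The level was 192 in sg-Ctrl against 198 in KO, for a log2 ratio of 0.05 (-0.05 to 0.14), a difference within counting error. The peak covered the whole gene in both conditions and passed its end, with 2.74 kb before the start in each. Both Junb and Jund lie on chromosome 8, whose median was -0.36.

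Atf3, a stress-induced bZIP factor that dimerizes with Jun proteins, had 1323 reads over 5.2 kb in sg-Ctrl (chr1:191180001-191185200) and 1641 over 5.6 kb in KO (chr1:191179801-191185400). Its level was 240 in sg-Ctrl against 217 in KO, for a log2 ratio of -0.14 (-0.25 to -0.04), which is 0.36 above the median gene. Total reads gave -0.03 (-0.14 to 0.07), an interval that holds 0. The edges of the Atf3 peak were each 200 bp farther out in KO.

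The Egr genes encode zinc finger factors induced beside AP-1, Egr1 by growth factors through serum response factor and Egr2 best known for its role in myelinating Schwann cells and in lymphocytes. Egr1, on chromosome 18, had 1316 reads over 4 kb in sg-Ctrl and 1032 over 3 kb in KO. Its level was 310 in sg-Ctrl against 255 in KO, for a log2 ratio of -0.28 (-0.40 to -0.16), which is 0.22 above the median gene. Total reads gave -0.70 (-0.81 to -0.58), which is below the median of all genes in total reads, -0.33. The Egr1 peak kept its upstream edge and ended 1000 bp nearer to the start in KO, so that it covered 37.2% of the gene in sg-Ctrl and 10.5% in KO. Egr2 had the narrowest sg-Ctrl peak, 2.2 kb with 1210 reads (chr10:67536201-67538400), and in KO 2.6 kb with 1165 reads (chr10:67535801-67538400). The Egr2 level was 518 in sg-Ctrl against 332 in KO, for a log2 ratio of -0.64 (-0.76 to -0.52), close to the median of chromosome 10 at -0.63. Few IgG reads fell in the Egr2 peak, 5 in each list, and its fold over IgG was the highest of the members at 228 in sg-Ctrl and 173 in KO.

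**Figure D2:**
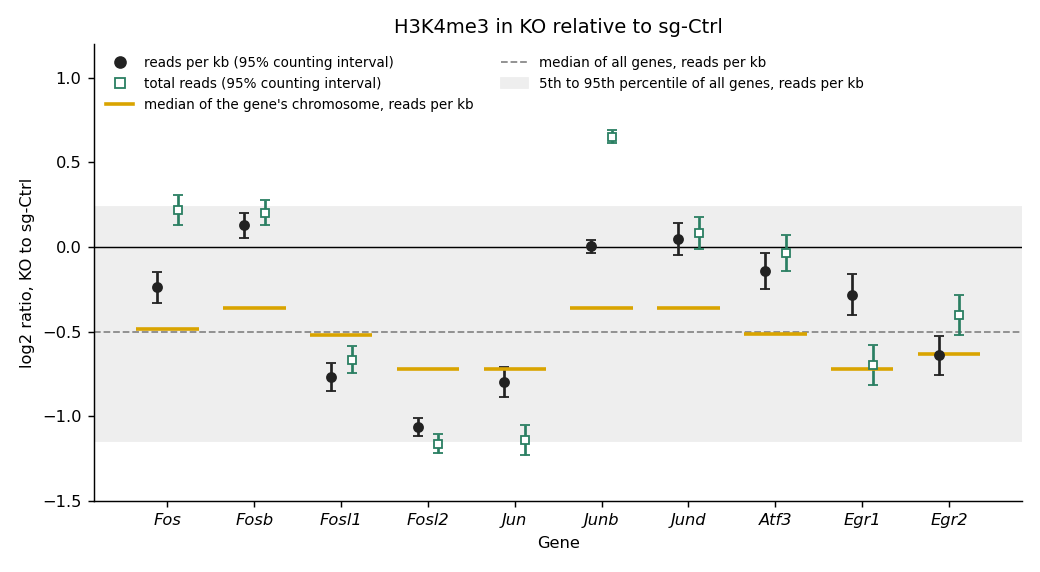
log2 ratio of KO to sg-Ctrl for each gene, as reads per kb (filled circles) and total scaled reads (open squares) with 95% counting intervals; yellow bars are the median of the gene's chromosome, the dashed line the median of all genes (-0.50) and the grey band their 5th to 95th percentile, all in reads per kb. Fosl2 is the lowest of the 10 on both scales, and the scales part most at Junb, from 0.00 to 0.65. The median of all genes in total scaled reads, -0.33, is not drawn.

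The order of the 10 genes by level differed between conditions. In sg-Ctrl it ran Fosl2, Fosb, Egr2, Fos, Junb, Fosl1, Jun, Egr1, Atf3 and Jund, and the intervals overlapped between Egr2 and Fos and between Junb and Fosl1. In KO it ran Fosb, Junb, Fos, Fosl2, Egr2, Fosl1, Egr1, Jun, Atf3 and Jund, and the intervals of Fosl2 and Egr2 overlapped, as did those of each neighbouring pair from Fosl1 to Atf3. The span from lowest to highest was 3.87-fold in sg-Ctrl and 3.43-fold in KO. Fosl2 went from the first place to the fourth, and Junb from the fifth to the second. The KO peak of Junb also takes in the stretch at Prdx2 and Rnaseh2a that was a separate peak in sg-Ctrl. Over the joined Junb region the scaled reads per kb were 477 in sg-Ctrl and 453 in KO, so the change in place compares unlike stretches. The median level of the members was 447 in sg-Ctrl and 296 in KO, below that of all genes, 543 and 382.

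Set against the median of their own chromosome, 6 of the 10 were higher, and these were the same 6 that lay above the median of all genes: Fos, Fosb, Junb, Jund, Atf3 and Egr1. The distances from the chromosome median ran from -0.34 in Fosl2 to 0.49 in Fosb. Chromosome medians ranged here from -0.72 on chromosomes 4, 5 and 18 to -0.36 on chromosomes 7 and 8, and what sets them was not tested.

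Peak widths ran from below to far above that of the median gene. They exceeded the median width of all genes in 8 of 10 members in sg-Ctrl, all but Fos and Egr2, and in 7 of 10 in KO, all but Fosb, Egr1 and Egr2. A width over 5 kb was found in 6 of 10 members in sg-Ctrl, beside 23.0% of all genes, and in 6 of 10 in KO, beside 31.0%. Median width was 5500 bp in sg-Ctrl and 5400 bp in KO for the members, and 3600 and 4200 bp for all genes. The KO peak was wider in 7 members, beside 63.1% of all genes, and narrower in 3 (Fosl2, Jun and Egr1), beside 27.1%. By the summed width of all TSS peaks, in which both sg-Ctrl peaks of Fosl1 count, 6 members were wider in KO. No member (0 of 10) kept its width, beside 9.85% of all genes. Apart from Junb, the change in width stayed between 200 and 1400 bp. The KO library was the deeper of the pair, and its part in the widths was not tested. The start site lay inside the peak in all 10 genes in both conditions, and the peak reached farther downstream than upstream in 6 of 10 in each.

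Taken as total scaled reads, the median log2 ratio was -0.22 over the members and -0.33 over all genes. On this measure 4 of 10 members were higher in KO (Fos, Fosb, Junb and Jund), beside 22.2% of all genes. At most 0.5 was reached by 2 of 10 (Fosl2 and Jun), beside 7.29% of all genes. Over joined regions, in which overlapping peaks of both lists were merged and the reads of each list summed, the count was again 2 of 10, beside 7.22%, and 3 members were higher in KO (Fos, Fosb and Jund), beside 21.4% of all genes.

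**Figure D3:**
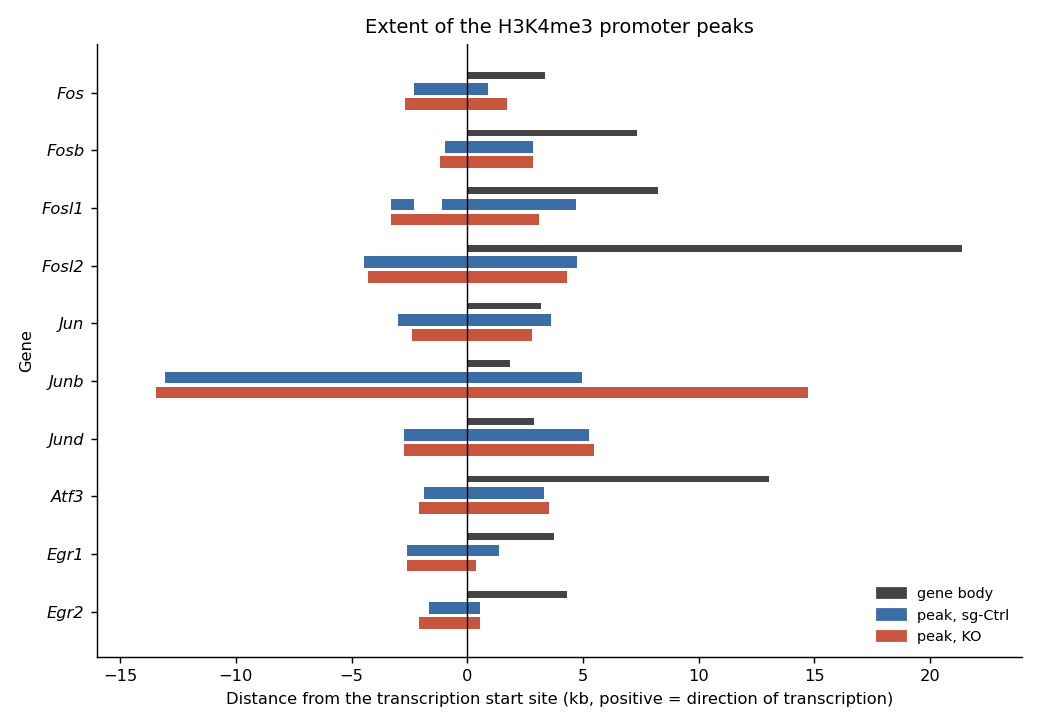
Extent of the H3K4me3 peaks in sg-Ctrl (blue) and KO (red) around each start site, in kb along the direction of transcription, with the gene body in dark grey. The Junb peak is 18 kb wide in sg-Ctrl and 28.2 kb in KO, with nearly all of the added stretch downstream, the separate small upstream peak of Fosl1 is part of the KO peak, and the Egr1 and Jun peaks are shorter in KO.

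No member had a listed gene-body peak of H3K27me3, which marks genes silenced by Polycomb. The count was 0 of 10 in sg-Ctrl, beside 6.33% of the 12693 genes with a TSS H3K4me3 peak in either list, and 0 of 10 in KO, beside 5.19%. Gene length matters for such a count, and among the 6048 of these genes within the length range of the members (1840 to 21368 bp) the shares were 3.19% and 2.68%. For so few genes a count of 0 is near these backgrounds.

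NUP210 and NPC gene-body peaks were also listed for 0 of 10 members each. Over the same 12693 genes the shares were 26.1% for NUP210 and 24.7% for NPC, and within the length range of the members 11.4% and 10.6%. Both lists hold weak peaks, with a median fold over IgG of 1.19 for NUP210 and 1.10 for NPC, against 2.57 for H3K27me3 in sg-Ctrl.

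The nearest listed peaks lay at 24.9 kb or more, counted from the gene body and over gene-body peaks only. The H3K27me3 distance was shortest at Junb, 24.9 kb in sg-Ctrl to a peak at Rtbdn and 26.9 kb in KO to a peak at Mast1 and Rtbdn. Jund was 33.4 kb from a peak at Pde4c in both conditions, with fold 2.40 in sg-Ctrl and 2.74 in KO. A peak within 100 kb was thus found for 2 of 10 members in each condition, beside 36.3% of the genes within the length range of the members in sg-Ctrl and 34.7% in KO. The other 8 genes were over 100 kb away, up to 1002 kb for Atf3 in sg-Ctrl and 1417 kb for Egr2 in KO. Near Fos, the closest KO peak lay at Batf, the gene of another AP-1 family protein, 211 kb away with fold 2.41. In sg-Ctrl the closest peak to Fos was at Mfsd7c, 303 kb away. The part of the unequal H3K27me3 library depth in these distances was not tested.

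The closest NUP210 peak was 72.5 kb from Fosl2, in the gene Bre, and an NPC peak covered the same stretch. That NUP210 peak had a fold of 0.808 and a false discovery rate of 1, so it held fewer NUP210 than scaled IgG reads. Jun followed, 76.0 kb from a NUP210 peak at Mysm1 with fold 1.45. Fosb lay farthest, 4672 kb from a NUP210 peak and 4822 kb from an NPC peak. Within 100 kb there were NUP210 peaks for 3 of 10 genes (Fosl2, Jun and Junb), beside 36.8% of the genes within the length range of the members, and NPC peaks for 2 (Fosl2 and Jun), beside 35.8%.

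**Figure D4:**
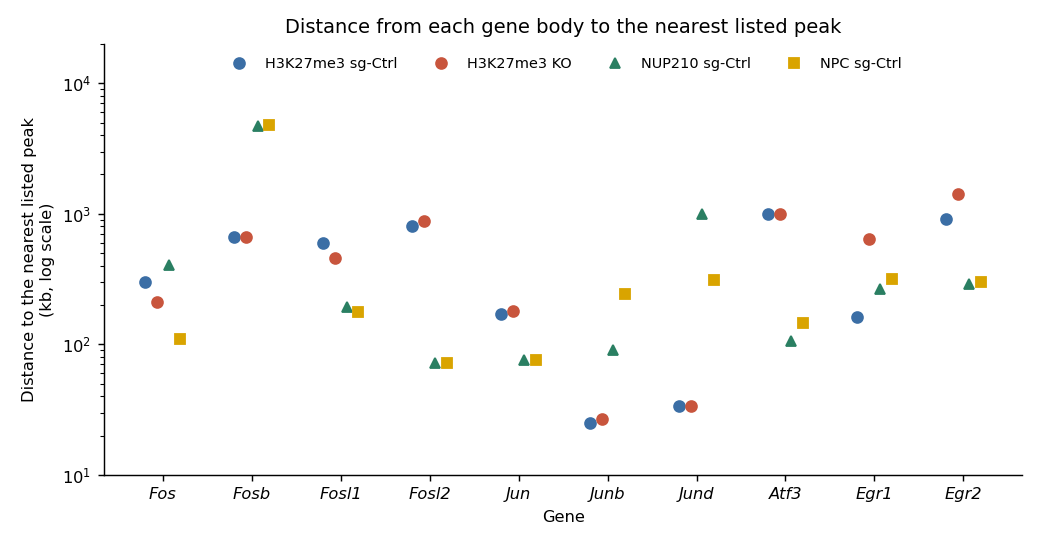
Distance in kb (log axis) from each gene body to the nearest listed peak of H3K27me3 in sg-Ctrl (blue circles) and KO (red circles), NUP210 (green triangles) and NPC (yellow squares). Junb and Jund are nearest to H3K27me3, at 24.9 to 33.4 kb, and Fosb is farthest from NUP210 and NPC.

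Other genes of the pathway had list medians on both sides of the -0.50 of all genes. Among 15 other AP-1 and related bZIP partners, 13 had a TSS peak in both lists, with a median log2 ratio of -0.62 in reads per kb, 2 of them at most 0.5 and 11 below 0. The lowest were the small Maf protein gene Mafk at -1.15 and Maf at -1.04, and the highest was Batf3 at 0.37. Their KO peaks were wider, and total scaled reads gave -0.66 for Mafk, -0.92 for Maf and 0.82 for Batf3. Batf had no TSS H3K4me3 peak and an H3K27me3 peak in KO only, and Maf had an H3K27me3 peak in sg-Ctrl only, with fold 2.38. The H3K27me3 libraries differ in depth, so a peak listed in a single condition is not a measured difference.

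Among 27 other immediate early genes, 24 had a peak in both lists, with a median of -0.46, 1 at most 0.5 and 23 below 0. Cyr61, a matricellular protein gene and a target of YAP and serum response factor, was lowest at -1.41, from 472 to 178 scaled reads per kb, followed by the phosphatase gene Dusp2 at -0.98. Nr4a1, an orphan nuclear receptor gene, was highest at 0.32, and Klf2 followed at -0.07. In total scaled reads Cyr61 was at -1.62, Dusp2 at -0.49, Nr4a1 at 0.43 and Klf2 at -0.29. Nr4a3 and Arc had a TSS H3K4me3 peak in sg-Ctrl only, whereas 12197 of the 12453 genes listed in sg-Ctrl had one in both lists. Reads at these 2 genes are not given, so their distance from the calling limit is not shown. Nr4a3 also had an H3K27me3 peak in sg-Ctrl only, with fold 1.86, from libraries of unequal depth. Nr4a3, Arc, Batf and Wt1 were singled out after their values were seen.

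Among 21 upstream kinases and serum response factors, 20 had a peak in both lists, with a median of -0.64, 2 at most 0.5 and 19 below 0. Elk3, a ternary complex factor that binds with serum response factor, was lowest at -1.31, followed by Map2k4, a kinase of the JNK and p38 pathways, at -1.08. Rps6ka3, which encodes the kinase RSK2, was highest at 0.22, followed by Mapk9, the gene of JNK2, at -0.00. In total scaled reads Elk3 was at -1.19, Map2k4 at -0.63, Rps6ka3 at 0.04 and Mapk9 at -0.17. Of 4 EGR partners and regulators, 3 had a peak in both lists (median -0.54): Nab2, an EGR corepressor, at -0.75, the zinc finger factor gene Sp1 at -0.54 and the corepressor gene Nab1 at -0.44. The fourth, Wt1, had H3K27me3 over its gene body in both conditions and no TSS H3K4me3 peak.

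NUP210 gene-body peaks were listed for 5 of the 15 bZIP partners, 4 of the 27 immediate early genes, 8 of the 21 kinases and serum response factors and 1 of the 4 EGR partners. NPC peaks were listed for 4, 3, 8 and 1 of them. Gene lengths differ between these lists and were not matched here.

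**Figure D5:**
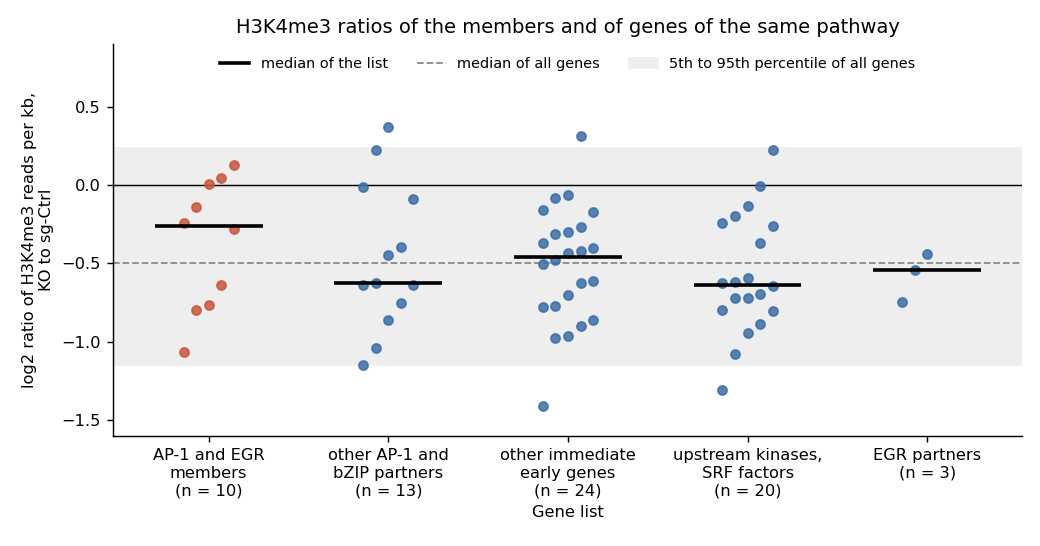
log2 ratio of H3K4me3 reads per kb, KO to sg-Ctrl, for the 10 members (red) and 4 lists of genes of the same pathway (blue), 1 point per gene with a TSS peak in both lists; bars are list medians, the dashed line the median of all genes and the grey band their 5th to 95th percentile. The median of the members is -0.26 and those of the lists lie between -0.64 and -0.46.

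By level in sg-Ctrl, log2 ratio and change in width combined, the genes nearest to the median of the members were Suv39h1, Vma21 and Ndufa3, measured over 3 standardized values in 1 library per condition. Suv39h1 had a level of 455 in sg-Ctrl and a log2 ratio of -0.25, Vma21 444 and -0.26, and Ndufa3 457 and -0.26. The 3 peaks were narrower than the median of the members, 3400, 4000 and 2600 bp in sg-Ctrl.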

How the data were processed

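ChIP-seq was analysed from 6 deposited lists of 4T1 peaks, of 13 samples; RNA-seq (4 samples) is not used here, and the 3 IgG libraries entered only as IgG read counts. The submitters' processing notes name Trimmomatic, Bowtie2 and Picard, and per the methods the authors called peaks with SICER (window 200 bp for H3K4me3, 1000 bp for the others). Each deposited row pairs a peak with a gene: with the 4 kb on either side of its start for H3K4me3, and with its gene body for the others. The build is not given in the sources used here for ChIP-seq; 88.6% of 9078 symbol-matched starts lay within 50 bp of RefSeq GRCm38.p6, so positions are given as GRCm38.

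The authors deposited raw ChIP and IgG read counts per peak, the fold (ratio) of ChIP over scaled IgG, and a p-value with its false discovery rate for each peak, which compare libraries and not conditions. ChIP count over IgG count divided by the deposited fold gave 1 constant per list, the library ratio to IgG: 1.06 for H3K4me3 in sg-Ctrl and 1.35 in KO. Where IgG held no read the fold used 0.25. Both H3K4me3 lists had the same IgG reads in all 575 peaks of equal extent. The level was reads divided by that ratio and by the width in kb. Where a gene had several peaks, that with the highest level was used. Intervals are exact 95% Poisson for reads and conditional binomial for ratios; PCR duplicates cannot be counted, so they cover counting error only. Peaks are called in each library alone, so width and reads per kb move with each other, and total reads and joined regions were computed beside them. The calculations were run on simulated counts that used the sg-Ctrl peaks for both conditions. Peak edges, joined peaks and the choice of scaling could not be checked in that run. Scripts ran under scipy 1.17.1 and numpy 2.4.6, with pandas 2.3.3 for tables, matplotlib 3.10.9 for plots and python 3.11.15.

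All 10 members are named, and from each list of other genes at most the 2 lowest and 2 highest ratios among genes with at least 100 reads; the value of 1 such gene is not reported here. The members and lists were chosen with earlier results of these data known. Alternatives were the scaling, the peak used per gene, total reads, IgG subtraction, the deposited fold, stricter peaks, joined regions and chromosome medians.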

Additional observations from a re-analysis of the deposited data

How the results depend on the processing

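The sign of the median member depended on the scaling. With libraries scaled by the reads of the 575 peaks of identical extent in both H3K4me3 lists, which leaves out the peaks that differ in extent, the median log2 ratio of the 10 members was 0.21 and no member (0 of 10) was at most 0.5. Relative to the median of all genes it was 0.24, again with 0 at most 0.5, and relative to the median of the same chromosome, chosen after seeing the data, it was 0.31, with 0. In all 3, the members above 0 were Fos, Fosb, Junb, Jund, Atf3 and Egr1. At most 0.5 was reached by 2 members in total reads (Fosl2 and Jun), by 2 in the deposited fold over IgG (Fosl1 and Fosl2), and by 2 in joined regions, also chosen after seeing the data (Fosl2 and Jun). The cause was not tested. Over 145 alternatives for 18 results, 58 of 100 values of single members fell outside the counting interval of the reported value. Fosb and Jund were above 0, and Fosl1, Fosl2 and Egr2 below 0, in every alternative run, while Fos, Jun, Junb, Atf3 and Egr1 changed sign in at least 1. The counting interval of Jund held 0, and Egr2 came to -0.007 relative to its chromosome. Scaling by shared peaks and setting against the median of all genes each shift every gene by the same amount, so they are not separate checks of a sign. The count of wider peaks stayed at the reported value or within 1.5 times. The counts of members with gene-body peaks could not move. Their alternatives, which are among the 145, only took peaks out of lists that held no member, so they check nothing. No paired analysis was possible because each mark had 1 library per condition. With 1 library per condition, counting error is the only error that can be given.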
